A study of Mus musculus with 18 samples.

Results

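The genes described here are 9 genes of the neuronal cytoskeleton and axon, *Nefl*, *Nefm*, *Nefh*, *Ina*, *Prph*, *Stmn2*, *Tubb3*, *Gap43* and *L1cam*, in mouse C2C12 myoblasts. They were chosen because earlier results from these libraries had named *Nefm*, *Nefl*, *L1cam* and *Stmn2* among the genes that differed most, and the other 5 were listed with them. They are 9 of the 35275 genes in the deposited table, and 7 of the 9 reached the level needed for testing. *Nefh* and *Ina* did not. Choosing genes by their measured values makes those values a description, so differences in the comparisons that had named a member carry no p-value below.

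C2C12 is a mouse myoblast line that leaves the cell cycle and fuses into myotubes when serum is lowered, and the labels describe this stock as negative for PAX7. Besides the wild-type control, one line overexpressed MUNC in its spliced form (MS) and another overexpressed the genomic, unspliced form (MG). MUNC is a noncoding transcript made from the region in front of *Myod1*. The labels do not say how the overexpressing lines were made, whether each is 1 clone, or whether the controls carry an empty vector. Each was sampled at about 80% confluence in growth medium with 20% fetal serum (GM) and after 3 days in medium with 2% horse serum (DM3). That gave 6 groups of 3 biological replicates, 18 RNA-seq libraries in all, from polyadenylated RNA. The 4 comparisons that had named a member were control DM3 against control GM, MS against control in each medium, and MS against MG in GM. Members also carry no p-value in MG against control in GM and MS DM3 against MS GM, whose differences follow from those 4 by adding and subtracting. The 3 remaining comparisons bring in the MG DM3 libraries, and each sets them against a group that the naming comparisons used. Every member p-value below therefore draws in part on libraries by which members were chosen, and is not separate support.

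Neurofilaments are the intermediate filaments of axons. The light chain, encoded by *Nefl*, forms the core, and the medium and heavy chains (*Nefm*, *Nefh*), α-internexin (*Ina*) and peripherin (*Prph*) assemble with it. *Tubb3* encodes the β-tubulin isoform typical of neurons. *Stmn2* encodes a stathmin that regulates microtubule growth in extending axons, *Gap43* a membrane protein of growth cones, and *L1cam* an adhesion molecule of the immunoglobulin family on axons. Outside neurons many such genes are held down by REST, a repressor that binds the RE1 element and recruits histone deacetylases. Skeletal muscle instead builds its intermediate filaments from desmin, with vimentin and nestin in myoblasts.

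Promoter sequences, from 250 bases before to 50 after the annotated start, were held in the RefSeq table for 4 of the 9 genes (GRCm38.p6). The 3 shown belong to genes that were tested. They lie at chrX:73880741-73881040 on the minus strand for *L1cam*, one of 2 listed starts of that gene, at chr15:99054924-99055223 on the plus strand for *Prph*, and at chr8:123411303-123411602 on the plus strand for *Tubb3*. Capitals mark a match to 1 of 5 motifs searched on both strands.
L1cam: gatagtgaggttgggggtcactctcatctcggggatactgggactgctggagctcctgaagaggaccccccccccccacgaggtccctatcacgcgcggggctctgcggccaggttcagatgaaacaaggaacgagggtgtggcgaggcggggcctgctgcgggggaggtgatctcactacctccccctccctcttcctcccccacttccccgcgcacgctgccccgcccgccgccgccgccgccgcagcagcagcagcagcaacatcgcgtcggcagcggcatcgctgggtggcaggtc
Prph: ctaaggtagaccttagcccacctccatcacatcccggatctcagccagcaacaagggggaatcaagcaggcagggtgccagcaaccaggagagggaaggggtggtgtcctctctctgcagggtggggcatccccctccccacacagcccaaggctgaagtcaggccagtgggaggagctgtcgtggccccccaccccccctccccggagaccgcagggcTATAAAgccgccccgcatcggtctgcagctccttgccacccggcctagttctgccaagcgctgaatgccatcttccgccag
Tubb3: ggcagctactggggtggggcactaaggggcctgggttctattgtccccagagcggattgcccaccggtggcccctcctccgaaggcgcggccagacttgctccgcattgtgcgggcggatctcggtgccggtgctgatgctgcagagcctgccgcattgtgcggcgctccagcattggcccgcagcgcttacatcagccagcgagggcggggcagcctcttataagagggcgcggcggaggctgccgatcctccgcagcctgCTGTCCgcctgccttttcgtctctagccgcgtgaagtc
The motifs were the E-boxes CAGCTG and CACGTG, bound by basic helix-loop-helix factors, and the TATA box TATAAA. Also searched were TTCAGCACC and GGACAG, letters from either end of the RE1 element. The *Prph* promoter held TATAAA beginning at position -31 from the start, and 13.6% of the 32851 promoters of this length held it. The *Tubb3* promoter held GGACAG on the opposite strand (capitals CTGTCC, first base at position +12), as did 22.2% of promoters on either strand. No match was found in the *L1cam* window, where a match to CAGCTG would be shared with 16.3% of promoters, to CACGTG with 7.15% and to TTCAGCACC with 0.371%. A match or its absence describes these letters only.

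Levels are given in FPM, reads of a gene scaled by the size factor of its library, and compared between genes only per kb of exon. The 18 libraries held 38416702 to 68788327 reads, so 1 read was worth 0.0143 to 0.0252 FPM, and a gene with 0 reads could have had up to 0.0757 FPM in the shallowest library (3 reads, counting error only). Replicates of a group correlated at 0.980 to 0.996. Of the muscle markers, *Vim* and *Des* were present in every group, *Pax7* had 1 read over the 3 control GM libraries, and *Myod1* had 5. *Myod1* averaged 12.4 FPM in MS GM, 3.84 in MG GM, 28.6 in MS DM3 and 18.4 in MG DM3, against 0.0993 in control DM3. In control GM *Itga7* averaged 174 FPM, *Myf5* 71.8 and *Cdh15* 46.3. *Myf5* averaged 58.7 FPM in MS GM and 26.7 in MG GM, and *Cdh15* 170 in MS GM and 22.9 in MG GM. The 7 myotube markers summed to 75.0 to 135 FPM in control DM3, 205 to 278 FPM in MG DM3 and 1071, 335 and 319 FPM in MS DM3 replicates 1, 2 and 3, so replicate 1 of MS DM3 stood apart. The largest part was *Chrna1*, at a mean of 97.3 FPM in control DM3, 184 in MG DM3 and 242 in MS DM3. In control DM3 *Tnnt3* and *Ttn* averaged 6.14 and 3.52 FPM, *Myh3* 0.444, *Myog* 0.344, *Ckm* 0.0444 and *Mymk* 0.0128. Of 8 neuron markers that are not members, *Elavl4* and *Gad1* had 0 reads in every library. *Rbfox3*, *Snap25*, *Elavl3* and *Slc17a6* had at most 14 reads over the 3 libraries of any group. The neuron marker sum ranged from 44.5 to 65.2 FPM in control GM, 22.5 to 34.2 in MS GM and 46.7 to 59.9 in MG GM, and its largest part was *Syn1*, a synaptic vesicle gene, at a mean of 56.2, 28.2 and 46.4 FPM. The remaining marker, *Syt1*, averaged 0.779 FPM in control GM, 0.0474 in MS GM and 4.75 in MG GM. In MG DM3 *Syt1* averaged 13.4 FPM beside 40.2 FPM of *Syn1*, and in control DM3 1.18 beside 61.6. The glial markers *Sox10* and *Olig2* had at most 1 read in any group. In bulk RNA, fewer cells expressing a gene and less RNA per cell cannot be told apart.

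Control myoblasts in GM carried the light and medium neurofilament chains, *L1cam* and *Tubb3* at substantial levels, and little of the rest. Per kb of exon the order in control GM was *Nefl* at 78.4 ± 18.2 FPM per kb (SD, n = 3), *Nefm* at 27.9 ± 12.3, *L1cam* at 22.4 ± 7.25, *Tubb3* at 20.0 ± 12.6, *Gap43* at 3.67 ± 0.376, *Prph* at 1.15 ± 0.132 and *Stmn2* at 0.189 ± 0.107. The SDs of *Nefm*, *L1cam* and *Tubb3* were larger than the steps between their means. *Nefl* took 47.5% to 56.9% of the summed level of the 9 genes in these 3 libraries. The mix differed by line. *Tubb3* took 71.2% to 86.3% in MS GM, and *Stmn2* took 18.7% to 35.0% in MG GM and 42.8% to 46.0% in MG DM3 against at most 0.324% in any control library. The summed level was 121 to 205 FPM per kb in control GM, 21.4 to 55.6 in MS GM and 50.5 to 75.2 in MG GM.

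**Figure D1:**
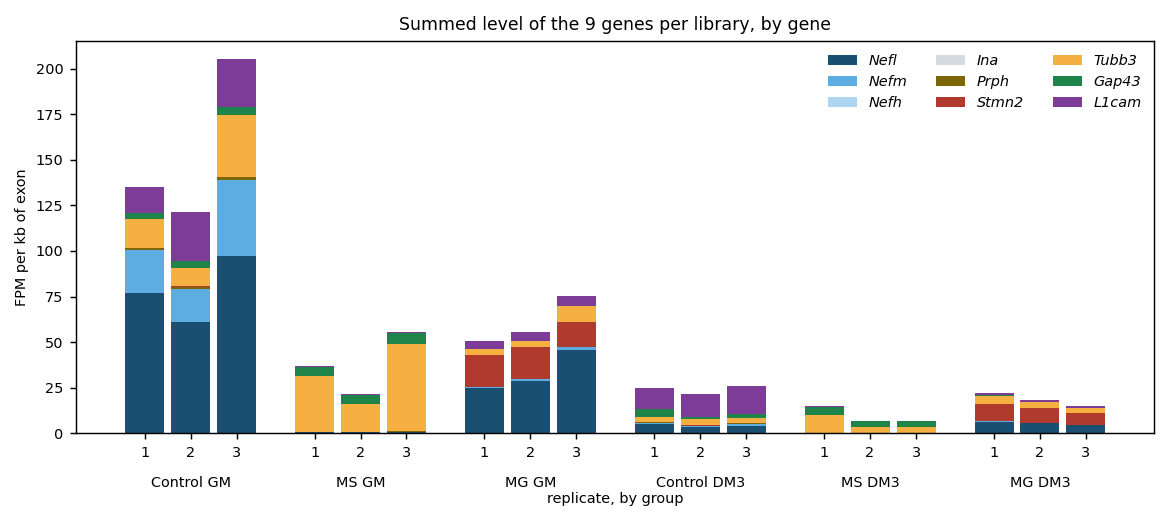
Summed level of the 9 genes in each library, in FPM per kb of exon (vertical axis), with 1 bar per library grouped by line and medium and coloured by gene. Control GM bars reach 121 to 205 FPM per kb, mostly *Nefl*, while MS GM bars are mostly *Tubb3* and *Stmn2* takes 18.7% to 46.0% of the MG bars and at most 0.495% of any other.

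*Nefl* encodes the neurofilament light chain and lies at chr14:68083863-68089095 on the plus strand. It measured 259.7, 206 and 329 FPM in control GM replicates 1, 2 and 3, and 83.1, 96.8 and 155 FPM in MG GM. In MS GM it measured 2.27, 2.09 and 2.98 FPM. The 3 groups did not overlap, with control highest and MS lowest. After 3 days in low serum, *Nefl* measured 18.1, 11.1 and 14.2 FPM in control cells and 21.7, 18.3 and 14.8 FPM in MG cells. These groups overlapped. In MS DM3 only 18, 15 and 2 reads remained, at 0.342, 0.261 and 0.0362 FPM. The order of group means was thus control GM, MG GM, MG DM3, control DM3, MS GM and MS DM3, and the only neighbours whose libraries overlapped were MG DM3 and control DM3.

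Tests used limma on log2(FPM + 1) over 13869 genes, with differences and SE on that scale, which understates changes of genes near 0. In DM3 *Nefl* differed between MG and control by 0.33 (limma adjusted p = 0.289), which did not pass. Within MG it fell from GM to DM3 by -2.51 (SE 0.234, limma adjusted p = 9.43e-07). In DM3, MS was below MG by -3.98 (adjusted p = 7.81e-10). The remaining contrasts are descriptions: -1.27 for MG minus control in GM (SE 0.234), -1.51 for MS DM3 minus GM and -4.10 for control DM3 minus GM. MS minus control gave -6.25 in GM and -3.65 in DM3, and MS minus MG in GM gave -4.99.

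*Nefm*, the medium chain gene, lies on the opposite strand of the same locus at chr14:68082590-68124846. It measured 136, 106 and 242 FPM in control GM but 4.18, 5.17 and 7.86 FPM in MG GM. In MS GM 4, 4 and 9 reads were counted, at 0.101, 0.0733 and 0.162 FPM. Control DM3 held 2.90, 4.14 and 4.46 FPM, overlapping MG GM, and MG DM3 held 0.653, 0.497 and 0.195 FPM. In MS DM3 there were 2 reads in replicate 2 and 0 in replicates 1 and 3. Every neighbouring pair in the order of group means other than MG GM and control DM3 was separated.

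*Nefm* was lower in MG than in control in DM3 by -1.74 (SE 0.247, limma adjusted p = 3.24e-05). It fell by 2.19 on the log2 scale from MG GM to MG DM3 (limma adjusted p = 4.09e-06). MS DM3 lay below MG DM3 in every library, at a difference of -0.50 that did not pass (adjusted p = 0.108). That call was gained with a pseudocount of 0.1 (-2.21, adjusted p = 0.000106), with 0.5 (-0.86, adjusted p = 0.0182), with only the compared groups fitted, and on recovered reads in edgeR (-4.99, adjusted p = 0.000413) and DESeq2 (-5.24). As descriptions, *Nefm* differed by -4.54 between MG and control in GM (SE 0.247), by -0.14 between MS DM3 and MS GM, by -5.00 between control DM3 and control GM, by -7.10 between MS and control in GM, by -2.24 in DM3, and by -2.56 between MS and MG in GM.

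The light and medium chains did not keep their proportion. Per length, the ratio of *Nefl* to *Nefm* was 3.27, 3.31 and 2.33 in control GM and 34.0, 32.1 and 33.8 in MG GM, computed after the values had been seen and so given with no test. In DM3 it was 10.6, 4.59 and 5.44 in control cells and 56.9, 63.1 and 129 in MG cells, the last on 10 *Nefm* reads. The MG libraries lay above the control libraries of either medium. In MS GM the ratio was 38.5, 48.8 and 31.4 on 4, 4 and 9 *Nefm* reads. In the GENCODE M21 annotation the exons of the pair share 1108 bases, 32.8% of the exon bases of *Nefl* and 19.2% of those of *Nefm*. Whether strand was used in counting is not given in the sources used here, so the part played by reads in the shared bases was not tested.

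**Figure D2:**
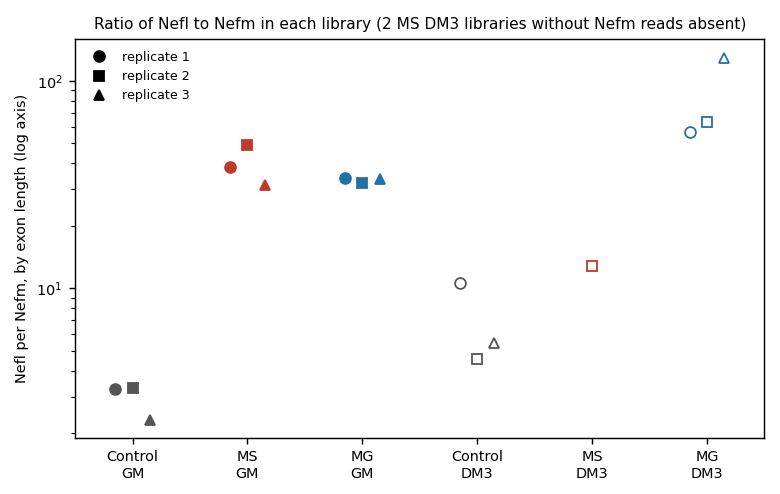
Ratio of *Nefl* to *Nefm* per exon length in each library (vertical axis, log scale) by group (horizontal axis), with marker shapes for replicates, filled in GM and open in DM3. Control GM lies at 2.33 to 3.31 and MG GM at 32.1 to 34.0, and 2 MS DM3 libraries without *Nefm* reads have no point.

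*Nefh* and *Ina*, the heavy chain and α-internexin genes, were near the limit of detection. *Nefh* had at most 24 reads in a library (MG GM replicate 1, 0.344 FPM), with 14 reads over the 3 control GM libraries, 33 over MG GM and 21 over MS GM. Its groups overlapped throughout the order of means. *Ina* had 3 reads in all, 1 each in control GM, MG GM and control DM3. Neither can be compared at this depth.

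*Prph*, the peripherin gene at chr15:99055174-99058978, was low but regular. Control GM held 2.44, 2.00 and 2.47 FPM and control DM3 0.557, 0.434 and 0.829 FPM. MS GM held 0.278, 0.403 and 0.144 FPM and MG GM 0.0859, 0.388 and 0.0210 FPM. In DM3 MG cells had 0.237, 0.241 and 0.0390 FPM, and MS cells had 0, 3 and 4 reads. Control GM stood above every other group and control DM3 above both MUNC lines, whose 4 groups were not separated from their neighbours. Only control libraries brought *Prph* over the filter of 0.5 FPM in 3 libraries. Its p-values carry that selection and are not separate support. *Prph* was lower in MG than in control in DM3 by -0.45 (SE 0.13, limma adjusted p = 0.0108). This call was lost without control DM3 replicate 3 (-0.35, limma adjusted p = 0.0613), without MG DM3 replicate 3 (-0.37, adjusted p = 0.0581) and in edgeR on recovered reads (adjusted p = 0.0543). Differences that did not pass were -0.17 for MS minus MG in DM3 and 0.02 for MG DM3 minus GM. The first was called in DESeq2 (-2.07, adjusted p = 0.047). Described only, *Prph* differed by -1.51 between MG and control in GM (SE 0.13), by -0.29 between MS DM3 and MS GM, by -1.38 between MS and control in GM, by -0.62 in DM3, by 0.14 between MS and MG in GM and by -1.04 between control DM3 and GM.

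*Stmn2*, at chr3:8509360-8561606 on the plus strand, was highest in the MG line. MG GM held 99.0, 99.4 and 78.6 FPM and MG DM3 52.6, 45.7 and 38.9 FPM. Control libraries held 1.60, 1.15 and 0.415 FPM in GM and 0.422, 0.395 and 0.276 FPM in DM3. Each MS GM library had 1 read, and MS DM3 libraries had 1, 0 and 10 reads, so these groups sat at or near the limit of detection. The 2 MG groups were separated from each other and from the rest, while control GM overlapped control DM3 and MS DM3 overlapped MS GM.

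*Stmn2* passed the filter of 0.5 FPM in 3 libraries only through MG libraries. Its p-values carry that selection and are not separate support. *Stmn2* was higher in MG than in control by 5.09 in DM3 (SE 0.183, limma adjusted p = 1.8e-12). Within MG it fell from GM to DM3 by -1.0 on the log2 scale (SE 0.183, limma adjusted p = 0.000279). MS lay below MG in DM3 by -5.45 (adjusted p = 5.71e-13). In the authors' deposited table the log2 fold change of *Stmn2* in MG against control was 6.50 in GM and 6.99 in DM3, without a pseudocount. As descriptions, MG minus control gave 5.54 in GM (SE 0.183), MS DM3 minus MS GM gave 0.06, MS minus control gave -0.97 in GM and -0.36 in DM3, control DM3 minus GM gave -0.55, and MS minus MG in GM gave -6.51.

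*Gap43*, the growth cone gene at chr16:42248442-42340651 on the minus strand, was near 0 in the MG line. It measured 5.05, 5.52 and 6.19 FPM in control GM and 7.62, 7.64 and 9.36 FPM in MS GM, but 4, 3 and 0 reads were counted in MG GM. In DM3 control cells held 6.20, 2.07 and 2.89 FPM, MS cells 7.33, 5.05 and 4.90 FPM, and MG cells had 12, 5 and 0 reads. Both MG groups lay below every library of the other 4 groups. *Gap43* was lower in MG than in control by -2.01 in DM3 (SE 0.228, limma adjusted p = 2.74e-06), and MS exceeded MG in DM3 by 2.60 (adjusted p = 1.11e-07). The difference between the media did not pass in MG (0.09, limma adjusted p = 0.784). In description, MG minus control gave -2.67 in GM (SE 0.228) and MS DM3 minus GM gave -0.46, while MS minus control gave 0.48 in GM, with no overlap, and 0.60 in DM3, with overlap. Control DM3 minus GM gave -0.57, and MS minus MG in GM gave 3.15. Across the 18 libraries *Gap43* and *Stmn2* correlated at -0.95, a value that rests on the 6 group means.

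*Tubb3*, the neuronal β-tubulin gene at chr8:123411424-123422015, had the largest SE of the 7 tested genes. It measured 29.5, 18.8 and 64.0 FPM in control GM, 56.8, 28.4 and 89.6 FPM in MS GM and 6.01, 5.72 and 16.4 FPM in MG GM. Replicate 3 was highest in all 3 GM groups. In DM3 it measured 5.30, 6.14 and 5.78 FPM in control, 18.0, 6.48 and 5.91 FPM in MS and 8.69, 6.04 and 4.53 FPM in MG cells. MG GM lay below control GM in every library, and the DM3 groups overlapped one another and MG GM. Differences of 0.10 for MG minus control in DM3, 0.46 for MS minus MG in DM3 and -0.38 for MG DM3 minus GM did not pass (limma adjusted p = 0.893, 0.473 and 0.552). As descriptions, MG minus control in GM gave -1.86 (SE 0.492), MS DM3 minus GM -2.43, control DM3 minus GM -2.34 and MS minus MG in GM 2.52. MS minus control gave 0.66 in GM and 0.56 in DM3, where the groups overlapped but MS was above control in every pair of libraries with the same replicate number. MS DM3 replicate 1, the highest of the DM3 libraries for *Tubb3*, was also the highest MS DM3 library for *Nefl*, *Gap43* and *L1cam*.

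*L1cam*, the axonal adhesion gene at chrX:73853778-73896105 on the minus strand, was high in control cells in both media. Control GM held 103, 197 and 194 FPM and control DM3 85.6, 94.3 and 115 FPM, and these overlapped. MG cells held 30.1, 35.0 and 37.6 FPM in GM and 7.78, 9.23 and 9.46 FPM in DM3. MS cells held 3.21, 1.89 and 3.63 FPM in GM and 0.911, 0.174 and 0.344 FPM in DM3. Control, MG and MS were separated in each medium, in that order. *L1cam* was lower in MG than in control by -3.33 in DM3 (SE 0.243, limma adjusted p = 1.32e-08). It fell from GM to DM3 by -1.84 in MG (limma adjusted p = 1.5e-05), and MS lay below MG in DM3 by -2.76 (adjusted p = 1.14e-07). Described only, MG minus control in GM gave -2.18 (SE 0.243), MS DM3 minus GM -1.41, control DM3 minus GM -0.69, MS minus control -5.38 in GM and -6.09 in DM3, and MS minus MG in GM -3.20. Exons of *L1cam* share 100 bases, 1.36% of its exon bases, with *Arhgap4*.

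**Figure D3:**
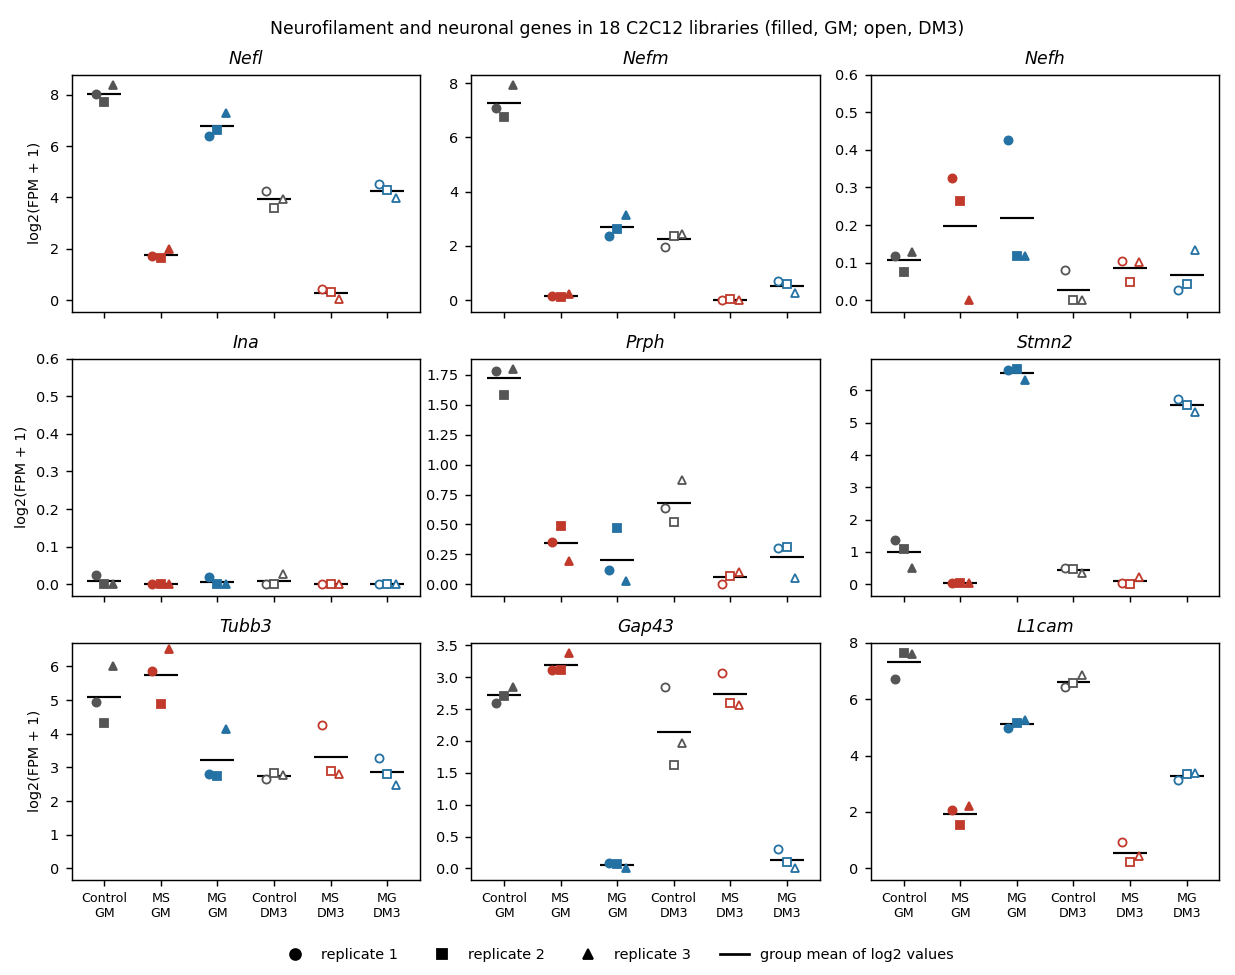
Level of each of the 9 genes as log2(FPM + 1) (vertical axes, scaled per gene) in the 18 libraries by group (horizontal axis), with marker shapes for replicates, lines for group means, filled points for GM and open points for DM3. *Stmn2* is high in the MG groups and *Gap43* is near 0 there, while *Nefl*, *Nefm*, *Prph* and *L1cam* are highest in control GM.

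Set side by side, MG against control in DM3 called 5 of the 7 genes in the fit, 1 higher (*Stmn2*) and 4 lower, where 40.3% of all genes tested were called. MS against MG in DM3 called 4 of 7, with *Gap43* higher and *Nefl*, *Stmn2* and *L1cam* lower (44.2%). Without MS DM3 replicate 1, this comparison again called 4, with *Nefl* at -4.06, *Stmn2* at -5.42, *Gap43* at 2.44 and *L1cam* at -2.96. From GM to DM3 the calls in MG were 4 of 7, all lower (51.4%). MG against control in GM (26.8% of all genes called) and MS DM3 against MS GM (35.6%) follow from comparisons that had named a member. Calls of members are therefore not counted there. The 7 passed the filter in part because they were high somewhere, and they were chosen with the variation between these groups known, so nothing is read from these counts. These 5 comparisons share libraries with each other and with the 4 that had named a member, in which 58.2% (control DM3 against GM), 35.5% (MS against control in GM), 43.3% (MS against control in DM3) and 35.8% (MS against MG in GM) of all genes were called. No test of a difference between lines in the response to DM3 was made for these genes.

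**Figure D4:**
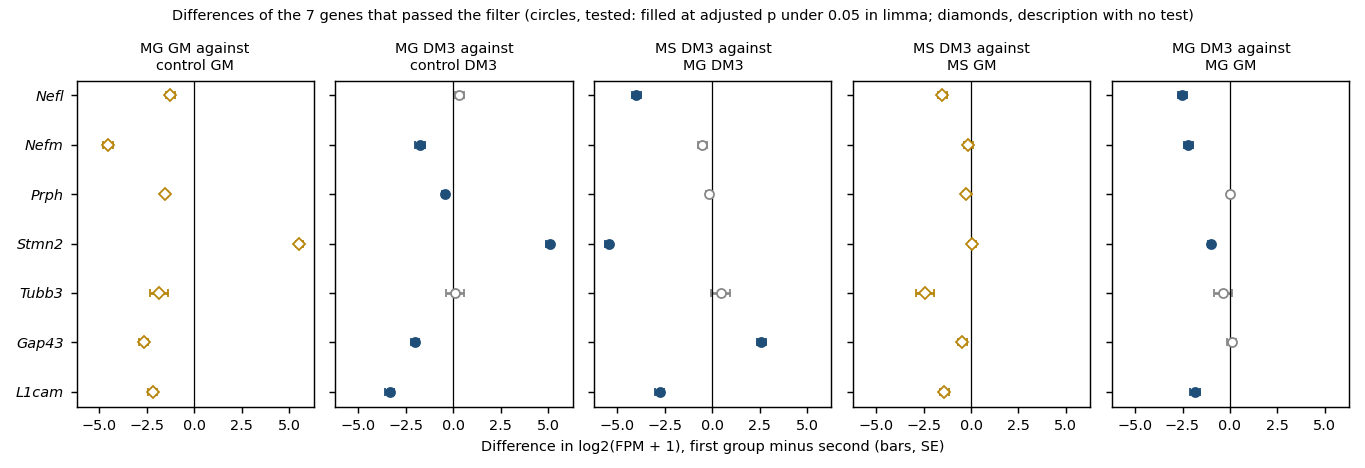
Difference in log2(FPM + 1) with its SE (horizontal axis) for the 7 tested genes (vertical axis) in 5 comparisons, with circles in the 3 that were tested, filled where the limma adjusted p was under 0.05, and diamonds in the 2 given as a description. *Stmn2* is 5.54 higher in MG than in control in GM and 5.09 higher in DM3, and the other 6 genes lie below 0 in MG against control in GM.

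Other genes of the neuronal cytoskeleton were called in both directions in each MUNC line against control. Of 27 further genes of neuronal microtubules and axon growth, 19 were tested. In GM, MG against control called 1 higher and 3 lower, where 26.8% of all genes were called, with a list median of -0.12 against -0.03 over all genes. MS against control in GM called 7 higher and 3 lower, against 35.5% of all genes, with a median of 0.11 against -0.02. In DM3 the counts were 2 higher and 9 lower in MG (all genes, 40.3%), with a median of -0.34 against -0.01 over all genes. In MS DM3 they were 9 higher and 5 lower (43.3%), with a median of 0.28 against 0.01. *Map2*, the dendritic microtubule protein gene, rose most in MG GM, from 0.00590 to 1.37 FPM. It was also under the filter level in control DM3 (0.0128 FPM) and MS GM (0.142 FPM). *Stmn4*, a relative of *Stmn2*, fell most in MG GM, from 1.29 to 0.00477 FPM. Both were picked as extremes of this comparison, so their values are a description. *Marcksl1*, an actin-regulating relative of MARCKS, rose most in MS GM, from 16.9 to 87.3 FPM. *Stmn1*, the stathmin of dividing cells, fell most from GM to DM3 in each line, from 83.5 to 9.11 FPM in control, 73.0 to 23.7 in MS and 94.0 to 14.0 in MG.

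Among relatives of *L1cam* (the L1 family, contactins and ankyrins), 6 of 15 were tested, and 2 were called in MG GM, both higher (all genes, 26.8%), while 3 rose and 1 fell in MS GM (35.5%). The ankyrin gene *Ank3* rose in MS GM, from 22.8 to 47.9 FPM, and *Ank2* fell from 45.4 to 21.9 FPM. *Cntn3* rose most in MG GM, from 0.0744 to 1.28 FPM. Among 12 genes of neurofilament cross-linking and turnover, all tested, MG GM had 1 higher and 3 lower (all genes, 26.8%) and MS GM 5 higher and 2 lower (35.5%). *Dync1i1*, a dynein intermediate chain gene, fell most in both, from 2.94 FPM in control GM to 1.04 in MS and 0.0239 in MG. Among other intermediate filament genes, 8 of 11 were tested. *Des*, the desmin gene of muscle, rose in MG GM from 24.2 to 476 FPM (log2 difference 4.25, limma adjusted p = 7.07e-08), and *Nes*, the nestin gene, fell in MS GM from 1613 to 817 FPM.

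Synaptic and neuron-defining genes were mostly below the filter, with 11 of 30 tested. In GM, MG against control called 2 higher and 3 lower (all genes, 26.8%) and MS against control 3 higher and 5 lower (35.5%). The DM3 counts were 3 higher and 4 lower in MG (all genes, 40.3%) and 3 higher and 7 lower in MS (43.3%). *Syt1*, the calcium sensor of synaptic vesicles, rose in MG GM from 0.779 to 4.75 FPM (log2 difference 1.72, limma adjusted p = 2.64e-06) and stood at 13.4 FPM in MG DM3. *Elavl2*, an RNA-binding protein gene of neurons, fell from 3.45 FPM in control GM to 0.00841 in MS GM and 0.0329 in MG GM, and was 5.33 FPM in control DM3. Of 25 proneural and neuronal transcription factor genes, 9 were tested. *Sox11* rose most in both MUNC lines in GM, from 0.267 to 36.8 FPM in MS and 34.1 FPM in MG.

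*Rest* itself was present in every group, at 57.3 ± 1.22 FPM in control GM (SD, n = 3), 66.0 ± 3.59 in MS GM and 52.1 ± 5.29 in MG GM. In GM neither MS (log2 difference 0.20, limma adjusted p = 0.0899) nor MG (-0.14, adjusted p = 0.272) passed against control. In DM3 *Rest* was 76.2 ± 5.32 in control, 73.3 ± 3.46 in MS and 54.7 ± 1.63 in MG, where MG was lower than control (-0.47, limma adjusted p = 0.000477). MS exceeded MG by 0.34 in GM (limma adjusted p = 0.00682) and by 0.41 in DM3 (adjusted p = 0.0012). From GM to DM3 *Rest* rose in control by 0.40 (limma adjusted p = 0.000983), while the differences of 0.15 in MS and 0.08 in MG did not pass. All 19 genes of the list of REST and its corepressors were tested. In MG GM 3 were higher and 2 lower, near the 26.8% of all genes called there. In MS GM 4 were higher and 1 lower, below the 35.5% of all genes. The DM3 counts were 3 higher and 4 lower in MG (all genes, 40.3%) and 5 higher and 7 lower in MS (43.3%). The corepressor gene *Rcor2* fell in MS GM from 48.4 to 27.0 FPM. These lists were written with earlier results of the same libraries known.

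Genes whose pattern over the 18 libraries was most like that of each member were sought among 11035 genes with a group mean of at least 5 FPM, by the Pearson correlation of log2(FPM + 1). These values are descriptions over libraries that share 6 groups. For *Nefl* they were *Ccnb1ip1* (0.98), *Peg10* (0.95) and *Slc16a13* (0.95), and for *Nefm* *2010300F17Rik*, *Tnfaip1* and *Parp2* (0.93 to 0.94). For *Stmn2* they were *Kcnab2*, *Rin3* and *Cdh5* (0.992 to 0.995), of which *Kcnab2* stood at 82.3 FPM in MG GM against 1.37 FPM in control GM. For *Gap43* they were *Lysmd2*, *Exo5* and *Tram1l1* (0.98), and *Lysmd2* had 0 reads in both MG groups. For *L1cam* they were *Gpr149* (0.97), *Arrb2* and *Itpk1* (0.96), and *Gpr149* stood at 98.7 FPM in control GM, 13.9 in MG GM and 0.996 in MS GM. *Tubb3* (*Uspl1*, *Ydjc*, *Dnlz*) and *Prph* (*Sema6d*, *N4bp3*, *Gatsl3*) had their nearest genes at 0.91 to 0.92. Among members, *Nefl* and *Nefm* correlated at 0.85, *Nefm* and *Prph* at 0.90 and *Nefl* and *L1cam* at 0.85.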

How the data were processed

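Polyadenylated RNA of 18 libraries (3 lines, 2 media, 3 replicates) was sequenced, and the submitters' processing notes name STAR, HTSeq, DESeq2 and mm10, with no roles. Annotation and strand use are not given in the sources used here. Normalized signal, in FPM, was deposited by the authors for all libraries, and 100% of the values up to 20000 reads were whole multiples of the step of their library, within 0.1 of a read, so reads were recovered. The authors also deposited log2 fold changes and adjusted p-values of their own comparisons, per the file headers. Groups come from sample titles, since another label disagreed with them in part. Exon lengths and positions are from GENCODE M21 on GRCm38, the assembly of mm10.

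Differences were fitted with limma 3.58.1 (R 4.3.3) on log2(FPM + 1) over the 13869 genes that reached 0.5 FPM in 3 or more libraries. The fit held all 18 libraries with 12 residual degrees of freedom, and genes were called at a p under 0.05 after Benjamini-Hochberg adjustment over all genes. The script was tested on simulated data. Alternatives were other pseudocounts, filters and scalings, fitting only the compared groups, a replicate block, leaving out each replicate, and edgeR 4.0.16 and DESeq2 1.42.0 on recovered reads. Replicate numbers come from the titles. Deviations of same-numbered libraries correlated at -0.06 to 0.73 (median 0.29) and of others at -0.63 to 0.32 (median -0.12), and every pair exceeded 0.1 in 6 of the 9 comparisons.

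MG against control in GM and MS DM3 against MS GM were planned as tests of the members, but both are sums or differences of the comparisons that had named a member, so their differences are given without p-values. Members and gene lists (10 lists, 174 genes) were chosen with earlier results of these data known. Named genes are the 9 members, *Rest*, the called gene with the largest rise and fall of each list per comparison with at least 1 FPM in the higher group, and the 3 genes of most similar pattern per member. A listed gene named for its rise or fall was picked by that difference, so its p-value is not separate support. The level of MUNC was not analysed here.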

Additional observations from a re-analysis of the deposited data

Results flagged for a closer look

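*Stmn2* in both media and *Gap43* in GM stood on opposite sides of control in the MUNC lines, with no library of either line overlapping the control libraries. For *Stmn2* the log2 difference from control was -0.97 in MS and 5.54 in MG in GM, and -0.36 in MS and 5.09 in MG in DM3. The MS side of *Stmn2* rests on 1 read in each GM library and on 1, 0 and 10 reads in DM3, at or near the limit of detection. Control DM3 libraries had 22, 20 and 15 reads. For *Gap43* the difference was 0.48 in MS and -2.67 in MG in GM. In DM3 it was 0.60 in MS, whose libraries overlapped control, and -2.01 in MG. *Gap43* had at most 12 reads in any MG library. The lines share the control libraries, and the difference between the lines' effects was not tested.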

How the results depend on the processing

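Of the 21 tested member differences, 14 kept their direction and their side of the threshold under every alternative run, and 7 did not. When only MS DM3 and MS GM were fitted, the listed genes called between them fell from 43 to 24 and all genes called from 4933 to 3046. *Prph* in MG DM3 against MG GM reversed to -0.0224 under quantile normalization, and ran from -0.0714 to 0.15 as replicates were left out. Leaving out replicates also turned the sign of 3 small differences of *Tubb3*, which ran from -0.11 to 0.29 in MG against control in DM3, from -0.00638 to 0.724 in MS against MG in DM3, and from -0.615 to 0.0732 in MG DM3 against MG GM. The cause of these changes was not tested. With replicate number as a block, the members called were 5 in MG against control in DM3, 4 in MS against MG in DM3 and 4 in MG DM3 against MG GM. These were the same counts as without the block, and no call of the 21 changed. The number of all genes called rose with the block in each of these comparisons. In the same order, it went from 5586 to 7002, from 6135 to 7570 and from 7127 to 8344. The member counts thus did not rise with those of all genes. Rescaling FPM to equal sums moved the share of higher calls among all genes from 51.3% to 66.2% for MS and from 45.6% to 56.2% for MG against control in GM. No scaling moved the median of all genes by 0.1 or more. Depth limits *Nefh*, *Ina*, *Nefm* and *Stmn2* in MS cells and *Gap43* in MG cells, where a few reads set each value.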

Other observations

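Receptors of the neurotrophic factor families were not described above. Of 14 genes of neurotrophin and related receptors and ligands, 7 were tested. *Gfra1*, the co-receptor of GDNF, stood at 1.52 ± 0.559 FPM in control GM (SD, n = 3), 18.5 ± 7.69 in MS GM and 92.9 ± 25.6 in MG GM, and at 4.63 ± 1.18, 42.5 ± 9.84 and 607 ± 45.6 FPM in DM3. It was higher in MG than in control by 5.21 in GM (limma adjusted p = 2.56e-10) and by 6.77 in DM3 (adjusted p = 7.27e-12). *Lifr*, the receptor of leukemia inhibitory factor, was highest in MS DM3, at 234 FPM against 23.5 in control DM3. *Slc17a7*, a vesicular glutamate transporter gene, stood at 7.13 FPM in MG DM3 against 0.206 in control DM3.

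Tested genes beside the members, 3 on either side by position on GRCm38, were chosen after their values were seen. Beside *Nefl* and *Nefm*, *Loxl2* rose in MG GM from 7.78 to 252 FPM (log2 difference 4.75). Of the 6 neighbours 3 were lower in MG GM, where 2017 of the 13869 genes tested were lower (26.8% called in either direction). In MS GM 4 of 6 were lower, where 2399 of the 13869 were lower (35.5% called in either direction). The 4 were *Kctd9* (-0.58), *R3hcc1* (-0.77), *Dock5* (-0.84) and *Slc25a37* (-0.85). The 6 genes beside *Stmn2* differed from control by -0.55 to -0.04 in MG GM.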
